A study of Mus musculus with 32 samples.

Results

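Translational efficiency, the ratio of polysome RNA to cytosolic RNA of the same mRNA, was compared between mouse embryonic fibroblasts (MEFs, cultured connective tissue cells of the embryo) treated with thapsigargin for 16 h and untreated cells. Thapsigargin inhibits the pump that fills the endoplasmic reticulum (ER) with calcium, and so brings about ER stress. The comparison takes 16 of the 32 libraries of the series, chosen by the sample names in the labels: a cytosolic and a polysome library from each of 4 control samples (thapsigargin for 0 h) and 4 samples at 16 h. Polysome RNA held the mRNAs that sedimented with more than 4 ribosomes. The series also holds cells treated for 1 h, and cells given a PERK inhibitor over the last 4 of 16 h, which entered the fit to estimate the spread. All cells were MEFs in the same growth medium, and the strain, genotype, passage and thapsigargin dose are not stated in the labels. All 20234 genes of the count table belong to the comparison: 12561 passed the filter on low counts and were tested, and 3234 had no read in any library.

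Under ER stress the kinase PERK phosphorylates the initiation factor eIF2, which blocks the exchange factor eIF2B and lowers translation initiation on most mRNAs. A few mRNAs escape because short open reading frames upstream of their coding region hold ribosomes back until eIF2 is limiting. They include those of the transcription factors ATF4 and CHOP (gene Ddit3) and of GADD34 (gene Ppp1r15a), the subunit that directs a phosphatase to eIF2. An mRNA enters the polysome fraction used here when enough ribosomes sit on it at once, so its ratio depends on initiation, elongation and the length of the coding region. Scaling sets each library against its own total, so a change stands relative to all other mRNAs, and a loss of polysomes common to all of them is not visible.

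Control libraries held 28280030 to 31979188 counts in cytosolic RNA and 30736134 to 35638944 in polysome RNA, libraries at 16 h 29465980 to 34966246 and 33363217 to 36216140, and libraries at 1 h 19317276 to 34758148 and 21160092 to 34678882. The 8 fibroblast markers examined were all above 1 CPM (counts scaled to a common library total), and their summed cytosolic level ran from 5854 to 8583 CPM in control samples and from 2092 to 2847 CPM at 16 h. None of 8 epithelial markers reached 1 CPM (summed levels 0.208 to 0.41 CPM in control samples and 0.242 to 0.577 CPM at 16 h). Of 8 markers each, 2 neural, 3 macrophage, 1 endothelial and 1 skeletal muscle marker were above 1 CPM in controls. Neural markers summed to 41.5 to 48.9 CPM in controls and 25.3 to 31.9 CPM at 16 h, and the other 3 lists to at most 6.49 CPM. Their part in the results was not tested. Whether the 4 replicates came from separate cultures is not in the labels, so p-values reflect only the spread among these samples, perhaps a technical one. The log2 ratios of a gene in samples numbered 1 and 3 lay farther from their group's mean (median absolute deviation 0.213 to 0.256 over genes) than those in samples 2 and 4 (0.11 to 0.154). Samples with the same number deviated in the same direction in both conditions, and results with the number as a block are given where they change a call.

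At 16 h the translational efficiency of 3910 genes was higher (31.1% of those tested) and that of 4151 was lower (33%), 8061 in all (64.2%, edgeR's quasi-likelihood test, Benjamini-Hochberg adjusted p under 0.05). A rise of at least 2-fold was called for 1670 genes and a fall of at least 2-fold for 1216. The middle of all genes stayed near 0 on the log2 scale (median -0.04, from -0.58 to 0.60 between the 25th and 75th percentile), and the lowest and highest 5% lay beyond -1.27 and 1.70. For 6700 genes (53.3%) the ratios of the 4 control and 4 treated samples did not overlap. Among the 4500 genes not called, 391 had an unadjusted p under 0.05.

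In most genes with a called ratio the polysome side moved in the direction of the ratio. Polysome RNA changed for 10273 of 12065 genes (85.1%), with 5103 higher and 5170 lower. Cytosolic RNA changed for 9559 of 12366 (77.3%), with 4683 higher and 4876 lower. Counts of such calls in the gene groups below are to be read beside these. Of the 3910 genes with higher efficiency, 3080 had more polysome RNA and 456 less, while 1575 had more cytosolic RNA and 1519 less. Of the 4151 with lower efficiency, 3176 had less polysome RNA and 516 more, while 1698 had more cytosolic RNA and 1655 less. The median cytosolic change was 0.01 in both sets, and the median polysome change 0.95 in the first and -0.74 in the second. Cytosolic and polysome RNA also moved in opposite directions: 710 genes (18.2% of those with higher efficiency) had less cytosolic but more polysome RNA, and 751 (18.1% of those with lower efficiency) had more cytosolic but less polysome RNA. A further 354 genes (9.05%) with higher efficiency lost cytosolic RNA with no call in polysome RNA, and 431 (10.4%) with lower efficiency gained cytosolic RNA with no call in polysome RNA. In these the ratio moved while the polysome level of the mRNA was not shown to change.

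**Figure D1:**
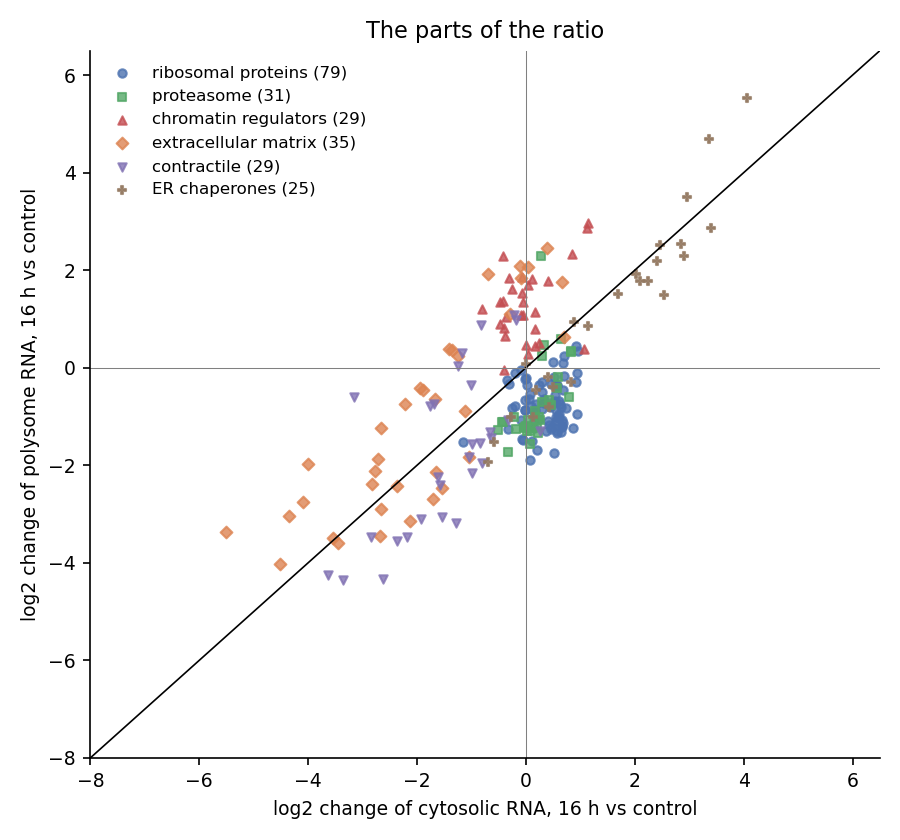
Log2 change of cytosolic RNA (horizontal) and of polysome RNA (vertical) at 16 h against control, 1 point per gene for 6 gene groups, numbers of genes in brackets; on the diagonal line both parts change alike and translational efficiency stays the same. Ribosomal protein and proteasome genes lie below the line near a cytosolic change of 0, chromatin regulators above it, and contractile and ER chaperone genes mostly below it at the far left and right.

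Long coding regions went with higher efficiency. The median log2 change was 0.86 for the 1723 genes with at least 3000 nt of coding sequence, of which 64.8% rose and 9.58% fell, and 0.31 for 2649 genes of 1800 to 3000 nt. It was -0.46 for 1719 genes of 600 to 900 nt, -0.44 for 1834 genes of 900 to 1200 nt (52% fell) and -0.11 for 2964 genes of 1200 to 1800 nt. The 577 shortest mRNAs, under 400 nt, were an exception with a median of 0.13 (29.5% rose, 12% fell), and 943 genes of 400 to 600 nt had a median of -0.29. In control cells the median ratio was highest at 900 to 1200 nt (0.50) and lower in mRNAs of at least 3000 nt (-0.45). After 16 h it was highest at 1800 to 3000 nt and above (0.34 in both bins), and 0.04 at 900 to 1200 nt. These bins describe genes, which are not replicates, with coding lengths from GENCODE for 98.8% of the genes tested. Because many groups below differ in length, each median is also given from a fit whose offsets remove the smooth trend with coding length within every library. Those corrected medians lay between -0.12 and 0.05 in all 7 length bins, and 3656 genes then rose and 4049 fell.

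**Figure D2:**
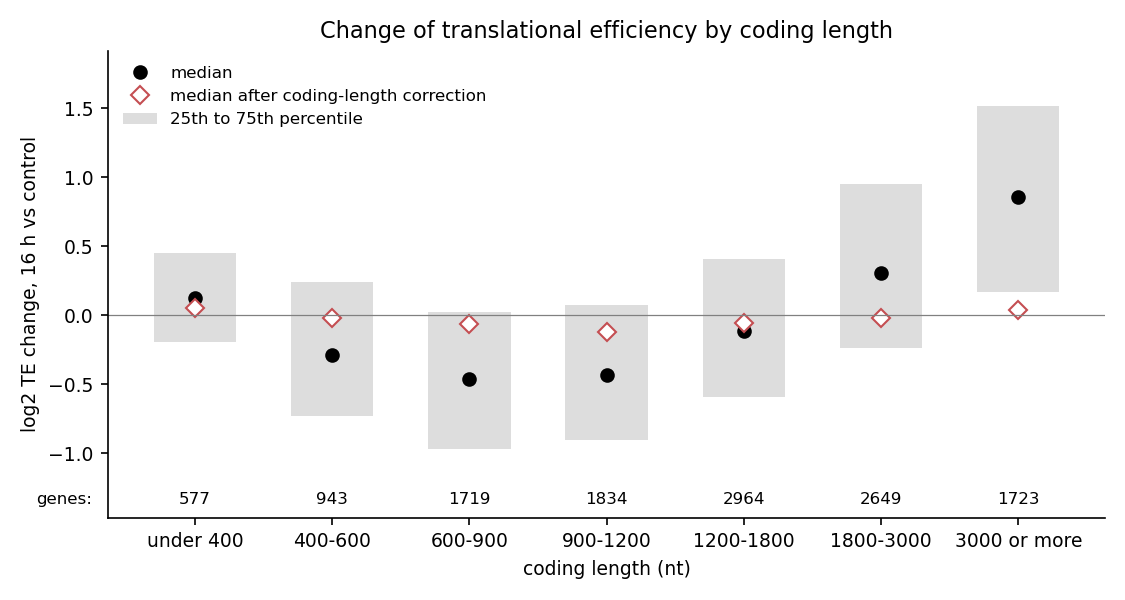
Log2 change of translational efficiency at 16 h against control (vertical) for genes grouped by coding length in nucleotides (horizontal). Grey bars span the 25th to the 75th percentile of genes, filled circles are medians, open diamonds medians after the correction for coding length, and the number of genes stands under each bar. The medians fall from 0.13 to -0.46 and then climb to 0.86 in the longest bin.

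Annotated untranslated regions (UTRs) went with the change as well. Among genes of 900 to 1800 nt, the median was -0.32 for 2317 mRNAs with no ATG in the annotated 5′ UTR and 0.11 for 294 with at least 6. In the same length range it was 0.24 for 353 mRNAs whose 5′ UTR had under 50% G and C, and -0.36 for 260 with at least 80%. For 3′ UTRs under 250 nt it was -0.54 (627 genes) and for those of at least 2000 nt 0.02 (1287 genes). Leaders and trailers are correlated in length and composition, and their separate parts were not tested. A second fit concerns genes whose RNA changed strongly: polysome RNA was regressed on condition with cytosolic RNA as a covariate (analysis of partial variance). Its slope was estimated, without bounds, from the spread of samples within conditions. The 2 libraries of control sample 3 and of 16 h samples 1 and 3 deviated in opposite directions (correlations -0.576, -0.675 and -0.703). If a slope is near 0, the value is close to the change of polysome RNA alone, which is not a measure of efficiency. The slopes of single genes are not given here, and their part in differences from the ratio was not tested. The ER chaperone median was 1.64 in this fit, 1.50 for polysome RNA and -0.51 for the ratio. That fit called 4441 genes higher and 3930 lower, and its value is given below where it turned, ended or made the call of a gene described.

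The mRNAs with known regulatory upstream open reading frames rose in efficiency as a group. Of 18 tested, 12 rose, 2 fell and 4 did not pass, with a median log2 change of 0.82 (1.04 corrected for coding length) against -0.04 for all genes. The median ratio of the group was -0.75, -0.85, -0.67 and -0.84 in the 4 control samples and 0.34, 0.21, 0.32 and 0.29 at 16 h. Atf4, the central transcription factor of the response (chr15:80255184-80257541, plus strand, mm10), had log2 ratios of -1.94, -1.89, -1.92 and -1.95 in control samples and 0.52, 0.55, 0.54 and 0.54 at 16 h. All 4 treated samples lay far above the controls, and neither group spread over a wide range. Its mean level went from 451 to 898 CPM in cytosolic RNA and from 118.6 to 1304 CPM in polysome RNA, and its efficiency rose 5.52-fold (log2 2.46 ± 0.05, SE, adjusted p = 3.40e-16).

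Ddit3, which encodes the pro-apoptotic factor CHOP, was at -1.69, -2.02, -1.78 and -1.61 in control samples and 0.28, -0.08, -0.14 and 0.17 at 16 h, again without overlap. Its cytosolic mRNA went from 13.6 to 482 CPM, so a 3.60-fold gain in efficiency (log2 1.85 ± 0.11, adjusted p = 4.14e-11) came on top of a far larger gain in RNA. The eIF2 phosphatase subunit Ppp1r15a was at -0.76, -0.93, -0.73 and -0.95 in controls and 0.70, 0.51, 0.52 and 0.59 at 16 h (log2 change 1.42 ± 0.08, adjusted p = 1.14e-11). Its constitutive counterpart Ppp1r15b did not pass (-0.07 ± 0.10, adjusted p = 0.53). With the replicate number as a block in a fit of the control and 16 h libraries alone, Ppp1r15b was called at -0.13 (adjusted p = 0.0029), and with the correction for coding length at -0.33 (adjusted p = 0.0072).

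Several of these mRNAs gained efficiency with little gain in RNA. Azin1, an inhibitor of antizyme and so a regulator of polyamine synthesis, lost cytosolic RNA (log2 -0.59) and gained polysome RNA (1.18), and its ratio went from -1.09, -0.65, -0.54 and -0.91 to 0.64, 1.08, 1.19 and 0.79. Efficiency rose 3.30-fold (log2 1.72 ± 0.12, adjusted p = 4.52e-10), with every treated sample above every control. Ifrd1, a transcriptional coregulator, rose by 1.82 ± 0.11 and the transcription factor Atf5 by 1.83 ± 0.12 (adjusted p = 7.76e-11 and 2.20e-10), with cytosolic changes of only 0.27 and 0.23. Smaller rises were called for Ibtk (1.46 ± 0.11), the cationic amino acid transporter Slc7a1 (0.64 ± 0.06), the kinase Uhmk1 (0.85 ± 0.18) and Slc35a4 (0.68 ± 0.09). The ratios of Uhmk1 ran from -2.31 to -1.46 in control samples and from -1.51 to -0.76 at 16 h, so the groups touched.

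A few mRNAs of the list went the other way or stayed below the threshold. The protease Bace1 fell by 0.78 ± 0.07 (adjusted p = 1.96e-08), from 0.99, 0.88, 0.99 and 0.79 to 0.06, 0.04, 0.22 and 0.18, with no overlap. The transcription factor Cebpa was listed as lower (-0.83 ± 0.32, adjusted p = 0.032) at levels near 1 CPM. That call ended with the correction for coding length (-0.53, adjusted p = 0.17), with DESeq2's Wald test (-0.77) and without control sample 2 (-0.76), control sample 4 (-0.80) or 16 h sample 2 (-0.62). Its relative Cebpb (-0.32 ± 0.21), the p53 ligase Mdm2 (-0.12 ± 0.08) and Amd1_Amd2 (0.19 ± 0.11), a joined symbol for 2 near-identical genes of polyamine synthesis, did not pass. In the blocked fit of control and 16 h libraries alone all 3 did, at -0.39, -0.18 and 0.13 (adjusted p = 2.21e-04, 0.0018 and 0.018). Cebpb also passed without control sample 3 (-0.50), as did Amd1_Amd2 (0.27), which passed without 16 h sample 1 as well (0.30). Ucp2, a mitochondrial carrier, rose by 0.80 ± 0.22 while its cytosolic RNA fell from 13.7 to 2.10 CPM, and the regression on cytosolic RNA put it at -1.67 (adjusted p = 0.12). Its control and treated ratios overlapped. The regression put Amd1_Amd2 at -0.59 and Ppp1r15b at -1.19 (adjusted p = 0.02 and 0.0035).

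**Figure D3:**
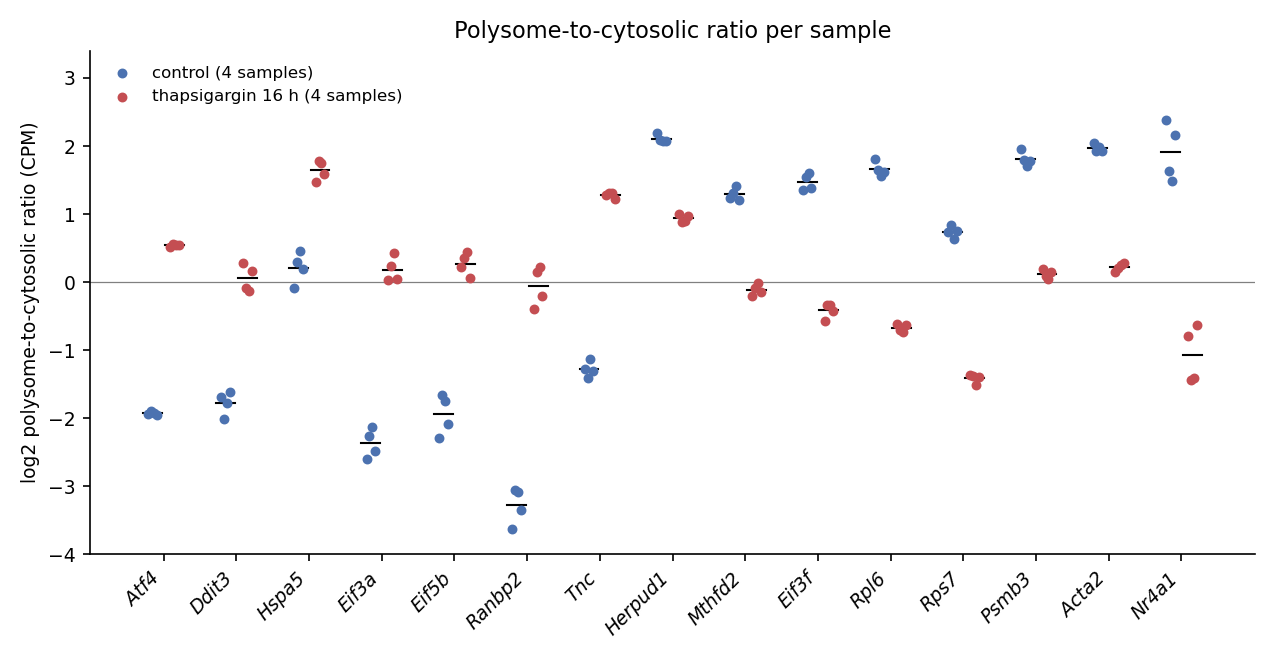
Log2 ratio of polysome to cytosolic RNA (vertical) of 15 genes (horizontal), 1 point per sample, 4 control samples in blue and 4 samples at 16 h in red, with the mean as a bar. For each of these genes the treated samples lie wholly above the controls (Atf4 to Tnc) or wholly below them (Herpud1 to Nr4a1). Ranbp2, Rpl6, Rps7 and Nr4a1 are among the extremes, for which this was a condition of the choice.

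The mRNAs of the initiation machinery itself split by subunit. Initiation factor 3 (eIF3) is the large scaffold that joins the small ribosomal subunit to the cap complex. All 13 eIF3 mRNAs gained cytosolic RNA (median log2 change 0.65), but 9 of them fell in efficiency, 2 rose and 2 did not pass (median -0.76, corrected -0.83). Eif3a, which encodes the largest subunit (chr19:60761117-60790658, minus strand), had ratios of -2.60, -2.27, -2.13 and -2.48 in control samples and 0.03, 0.24, 0.42 and 0.05 at 16 h. Every treated sample lay above every control, and efficiency rose 5.87-fold (log2 2.55 ± 0.10, adjusted p = 3.35e-13). Eif3c, another core subunit, rose by 0.86 ± 0.06 (adjusted p = 3.27e-10), from 0.62, 0.67, 0.75 and 0.84 to 1.54, 1.61, 1.62 and 1.57.

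The smaller eIF3 subunits moved the opposite way. Eif3f was at 1.35, 1.54, 1.60 and 1.38 in control samples and -0.57, -0.34, -0.34 and -0.42 at 16 h, a 3.70-fold fall (-1.89 ± 0.08, adjusted p = 3.94e-13) that took polysome RNA from 272 to 114.8 CPM while cytosolic RNA went from 98.1 to 153 CPM. Eif3k (-1.78 ± 0.08), Eif3g (-1.75 ± 0.09), Eif3h (-1.70 ± 0.07), Eif3i (-1.34 ± 0.06), Eif3m (-1.29 ± 0.10) and Eif3l (-0.76 ± 0.06) fell as well (adjusted p from 1.02e-12 for Eif3h to 2.40e-09 for Eif3m). Their coding regions run from 657 nt (Eif3k) to 1695 nt (Eif3l), against 4035 nt for Eif3a and 2736 nt for Eif3c. With the correction for coding length Eif3a stayed at 1.80, Eif3c at 0.39 and Eif3f at -1.58, and all 3 kept their calls. Eif3e (-0.43 ± 0.12) and the joined Eif3j1_Eif3j2 (-0.55 ± 0.12) fell by less, and the corrected value of Eif3e did not pass (-0.28, adjusted p = 0.056). Eif3b (0.02 ± 0.07) and Eif3d (0.15 ± 0.07) were not called. Eif3b passed as lower after the correction (-0.35, adjusted p = 7.27e-05), and Eif3d passed as higher with the replicate block across conditions (0.15, adjusted p = 0.045), with DESeq2's Wald test (0.20) and without control sample 1 (0.20).

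The group of eIF2, its exchange factor eIF2B and their partners fell more often than it rose (7 lower and 2 higher of 12, median -0.36, corrected -0.10, and 0.38 in the regression on cytosolic RNA). The 2 that rose were both factors that act on the initiation complex late, Eif5b, which joins the ribosomal subunits, and Eif5, which triggers GTP hydrolysis by eIF2. Eif5b went from -2.29, -1.66, -1.75 and -2.08 to 0.23, 0.35, 0.45 and 0.07, a 4.65-fold rise (2.22 ± 0.13, adjusted p = 2.47e-11). Eif5 went from -1.02, -0.64, -0.55 and -0.95 to 0.05, 0.47, 0.64 and 0.25 (1.14 ± 0.12, adjusted p = 7.78e-08). Treated and control samples did not overlap for either gene. Among the subunits of eIF2B, Eif2b2 (-0.94 ± 0.14), Eif2b5 (-0.93 ± 0.08), Eif2b1 (-0.83 ± 0.07) and Eif2b4 (-0.57 ± 0.09) fell. Eif2b3 lay at -0.21 ± 0.10 (adjusted p = 0.06) and was called in the blocked fit of control and 16 h libraries alone (-0.28, adjusted p = 1.46e-06), and without control sample 1 (-0.28), 16 h sample 2 (-0.26) or 16 h sample 3 (-0.30). Of eIF2 itself, Eif2s1, the subunit that PERK phosphorylates, fell by 0.40 ± 0.11 and Eif2s3x by 0.45 ± 0.10, while Eif2s2 lay at 0.03 ± 0.11 (adjusted p = 0.81). With the correction for coding length Eif2s1 was at -0.03 (adjusted p = 0.81) and Eif2s2 was called higher (0.38, adjusted p = 0.0052). The start codon factor Eif1 was at 0.03 ± 0.08 (adjusted p = 0.78), and Eif1ax fell by 0.31 ± 0.10, a call that ended with that correction (-0.12).

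The 4 kinases of eIF2 did not move together. Eif2ak2, the kinase PKR that senses double-stranded RNA, went from -1.79, -1.58, -1.41 and -1.81 to -0.25, 0.17, 0.19 and -0.24, a 3.07-fold rise (1.62 ± 0.12, adjusted p = 6.85e-10). Eif2ak4, the amino acid sensor GCN2, rose by 0.87 ± 0.07 (adjusted p = 6.83e-09), and with the correction for its coding length of 4947 nt it was at -0.01. Eif2ak3, which encodes PERK, fell by 0.55 ± 0.07 (adjusted p = 1.07e-06), from 1.08, 1.10, 1.12 and 1.06 to 0.49, 0.58, 0.64 and 0.47, with a 16 h group wholly below the controls. Eif2ak1, the heme-regulated kinase, was not called (adjusted p = 0.97), with ratios of 0.49, 0.60, 0.75 and 0.43 in control samples and 0.37, 0.66, 0.78 and 0.47 at 16 h. Of the catalytic subunits of the phosphatase that removes the mark, Ppp1ca fell by 1.16 ± 0.05 (adjusted p = 1.21e-12), Ppp1cc by 0.53 ± 0.09 and Ppp1cb by 0.38 ± 0.11, of which the last 2 did not pass with the length correction (-0.17 and -0.02). Dnajc3, a cochaperone known as an inhibitor of eIF2 kinases, was at -0.13 ± 0.10 (adjusted p = 0.25), and the adaptor Nck1 at -0.17 ± 0.13 (adjusted p = 0.26). The blocked fit of control and 16 h libraries alone called both, at -0.19 and -0.23 (adjusted p = 3.40e-05 and 3.81e-04).

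In the cap-binding complex eIF4F the scaffold rose and the cap binder and helicase fell. Eif4g1, the scaffold, went from -0.28, -0.37, -0.26 and -0.29 to 1.30, 1.28, 1.26 and 1.24 (log2 change 1.57 ± 0.05, adjusted p = 7.16e-14), and the related Eif4g3 and Eif4g2 rose by 0.90 ± 0.09 and 0.47 ± 0.11. The correction for coding length left Eif4g1 at 0.70 and ended the calls of Eif4g3 (0.04) and Eif4g2 (0.004). The cap binder Eif4e fell by 0.95 ± 0.10, from -0.38, -0.01, 0.04 and -0.33 to -1.35, -1.02, -0.96 and -1.15 (adjusted p = 1.21e-07). The helicase Eif4a1 fell by 1.10 ± 0.08 (adjusted p = 1.42e-09) and its paralog Eif4a2 rose by 0.44 ± 0.11 (adjusted p = 0.0013). Of the helicase cofactors Eif4h fell by 1.17 ± 0.11 and Eif4b rose by 0.70 ± 0.07, although both bind the same helicase. The kinases of eIF4E, Mknk1 and Mknk2, fell (log2 changes -1.22 ± 0.06 and -0.99 ± 0.19). Among the eIF4E-binding repressors, Eif4ebp3 rose by 1.40 ± 0.16 (adjusted p = 2.94e-07), while Eif4ebp1 (-0.11 ± 0.18), Eif4ebp2 (0.14 ± 0.09), the helicase inhibitor Pdcd4 (-0.17 ± 0.11) and the cap-binding relative Eif4e3 (-0.29 ± 0.29) did not pass. The blocked fit of control and 16 h libraries alone called Eif4ebp1 at -0.17 (adjusted p = 8.17e-04) and Pdcd4 at -0.23 (adjusted p = 1.72e-04). A second relative, Eif4e2, lay at 0.03 ± 0.08 and was called with the length correction (0.44, adjusted p = 1.91e-04).

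Most initiation factor mRNAs gained cytosolic RNA, and the regression on cytosolic RNA gave higher values for them than the ratio. It turned the sign of Eif3e (0.44), Eif3j1_Eif3j2 (0.28), Eif2s1 (0.50), Eif2s3x (0.25), Eif2b4 (0.20), Eif2ak3 (0.16) and Mknk1 (0.10) among the genes called by the ratio. Of these Eif2s1 passed as higher (adjusted p = 0.033). Eif3g (-0.55), Eif3m (-0.29), Eif3l (-0.15), Eif2b1 (-0.36) and Eif2b2 (-0.06) kept their direction but did not pass. Eif3b (1.09), Eif3d (1.54), Eif2s2 (0.93), Eif1 (1.00), Eif2b3 (1.65), Nck1 (0.69), Dnajc3 (2.04), Eif4ebp1 (0.62) and Pdcd4 (0.79) passed as higher. The falls of Eif3f (-1.14), Eif3h (-0.79), Eif3i (-0.80) and Eif3k (-1.32) and the rise of Eif3a (3.28) passed in that fit too.

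**Figure D4:**
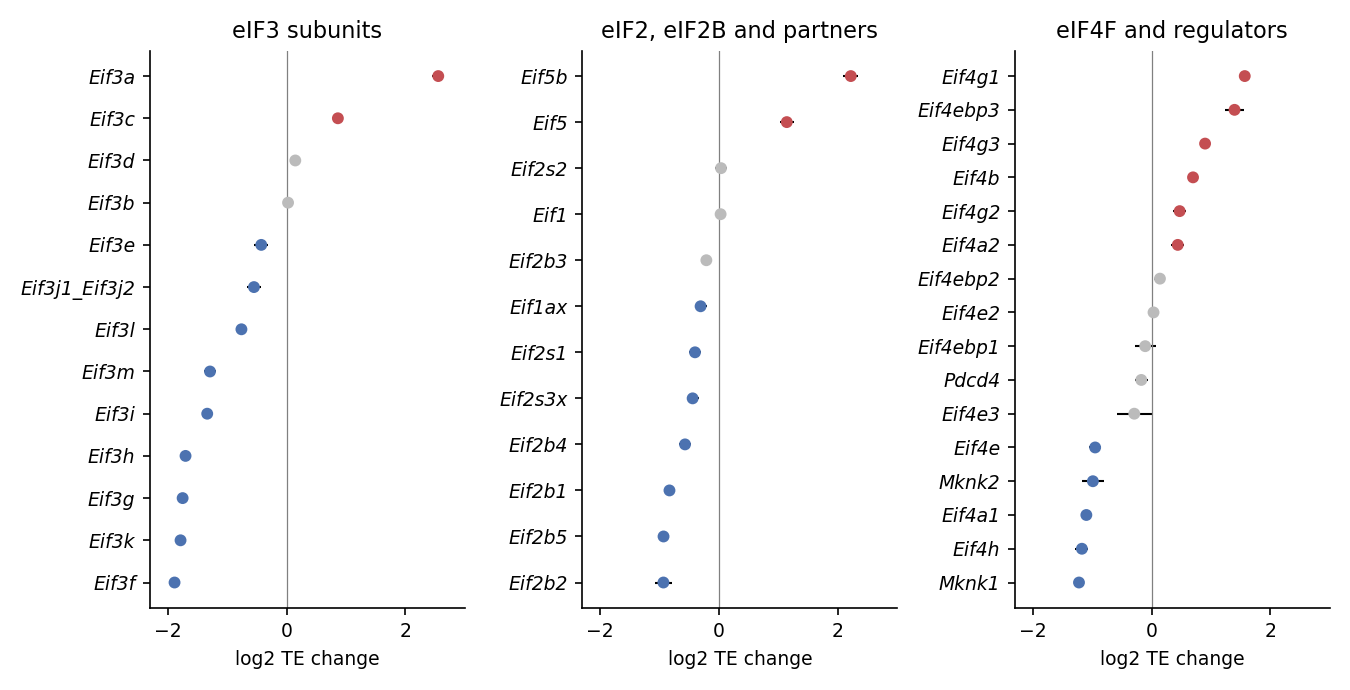
Log2 change of translational efficiency at 16 h against control (horizontal) for each gene of 3 groups of initiation factors (vertical), with bars of 1 standard error from the fit. Red points were called higher, blue lower and grey not called, and in each group both directions occur, from 2.55 for Eif3a to -1.89 for Eif3f among the eIF3 subunits.

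Most mRNAs of ER proteins rose in amount but fell in efficiency. Of 25 ER chaperones and folding enzymes, 20 gained cytosolic RNA (median log2 change 1.69), 3 rose in efficiency and 17 fell (median -0.51, corrected -0.26 with 2 higher and 11 lower). Hspa5, the major ER chaperone BiP, had the highest value of the group. Its ratios were -0.08, 0.29, 0.46 and 0.19 in control samples and 1.48, 1.78, 1.74 and 1.58 at 16 h, so all 4 treated samples lay above the controls. From 982 CPM its polysome RNA went to 47950 CPM, with an efficiency that rose 2.70-fold (1.43 ± 0.09, adjusted p = 1.49e-10). Herpud1, an ER membrane protein of the degradation pathway, gained RNA on both sides of the ratio (3.31 cytosolic, 2.18 polysome) and fell 2.26-fold in efficiency, from 2.20, 2.09, 2.07 and 2.07 to 1.00, 0.88, 0.90 and 0.96 (-1.17 ± 0.05, adjusted p = 8.69e-13). The folding enzymes Txndc5 (-1.29 ± 0.05), Ppib (-1.28 ± 0.05) and Pdia5 (-0.95 ± 0.06) fell too (adjusted p at most 3.77e-11), and Txndc5 lost cytosolic RNA as well (-0.70).

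Other groups of the secretory pathway held more falls than rises as well. In ER-associated degradation 5 of 22 genes rose and 11 fell (median -0.40, corrected -0.30). Vcp, the ATPase that extracts proteins from the ER membrane, had the highest value of these and went from 0.20, 0.34, 0.62 and 0.43 to 1.85, 2.02, 2.10 and 1.89 (1.57 ± 0.08, adjusted p = 6.25e-12), whereas the channel protein Derl2 fell by 1.10 ± 0.08. For ER translocation and N-glycosylation 21 of 33 fell and 5 rose (median -0.50, corrected -0.42), although 27 of them gained cytosolic RNA. Ddost, a subunit of the oligosaccharyltransferase, fell 2.82-fold, from 2.06, 1.95, 1.99 and 1.91 to 0.49, 0.45, 0.52 and 0.46 (-1.50 ± 0.06, adjusted p = 3.35e-13), and Ssr4, of the translocon-associated complex, fell by 1.18 ± 0.07. ER-to-Golgi transport divided into 13 higher and 19 lower of 33 (median -0.40, corrected -0.22). The vesicle coat subunits Sec24d (1.65 ± 0.06) and Copg1 (1.49 ± 0.06) rose, and the small membrane receptors Kdelr2 (-1.40 ± 0.05) and Surf4 (-1.20 ± 0.05) fell (adjusted p at most 6.94e-13). Among 17 genes of ER calcium handling 4 rose and 8 fell (median -0.22, with 1 sample left out from -0.43 without 16 h sample 1 to -0.14 without control sample 4, corrected -0.34). Unlike in the groups before, 13 of these genes lost cytosolic RNA and 2 gained it (median -0.53). The calcium release channels Itpr2 and Itpr1 rose by 2.03 ± 0.09 and 1.77 ± 0.09 (corrected 0.84 and 0.57), and the lowest value of the group was -1.38.

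Several other stress transcripts of the response panel fell in efficiency. Trib3, a pseudokinase and known CHOP target, went from 2.48, 1.76, 1.58 and 2.13 to 1.14, 0.53, 0.28 and 0.79 (-1.30 ± 0.19, adjusted p = 2.41e-05), with the 4 treated samples below the controls. Xbp1, the transcription factor spliced by IRE1, fell by 0.40 ± 0.08 (adjusted p = 2.31e-04), the cochaperone Dnajb9 by 0.65 ± 0.11, the glutathione-degrading Chac1 by 0.60 ± 0.14, Asns, the asparagine synthetase, by 0.39 ± 0.08 and the transcription factor Atf3 by 0.27 ± 0.07. Slc7a11, the cystine transporter, rose by 1.05 ± 0.11 (adjusted p = 1.69e-07), from -0.54, -0.17, -0.13 and -0.49 to 0.45, 0.86, 0.97 and 0.59. The length correction ended the calls of Xbp1 (0.01), Atf3 (0.04), Chac1 (-0.20) and Dnajb9 (-0.26). Most of these mRNAs gained far more RNA than they lost in efficiency, and the regression on cytosolic RNA turned the sign. It gave 1.66 for Herpud1, 0.89 for Xbp1, 2.71 for Dnajb9, 0.79 for Trib3, 2.55 for Chac1, 0.57 for Asns and 1.88 for Atf3. The medians of the ER chaperone, degradation, translocation and ER-to-Golgi groups turned to 1.64, 0.46, 0.02 and 0.06 in that fit, where Ppib (-0.57), Pdia5 (-0.37) and Derl2 (-0.20) did not pass.

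Targets of ATF4 and CHOP fell in 19 of 31 cases and rose in 7 (median -0.39, corrected -0.35, and 0.90 in the regression on cytosolic RNA). Mthfd2, an enzyme of the mitochondrial folate cycle, went from 1.24, 1.31, 1.41 and 1.21 to -0.20, -0.08, -0.01 and -0.14, a 2.64-fold fall (-1.40 ± 0.06, adjusted p = 1.05e-12). Treated and control ratios did not overlap, with polysome RNA at 643 CPM in controls and 443 CPM at 16 h. Gpt2, an alanine aminotransferase, fell by 0.95 ± 0.07 and the leucine transporter Slc7a5 by 1.04 ± 0.06 (adjusted p = 6.31e-10 and 8.62e-11). Mthfd2 and Gpt2 had more cytosolic RNA at 16 h and were at -0.08 and 0.01 in that regression (adjusted p = 0.87 and 0.98). Aldh18a1, which starts proline synthesis, rose by 1.00 ± 0.06 (adjusted p = 9.81e-11). The cytosolic tRNA synthetases, which charge tRNAs with amino acids, rose more often than they fell (11 higher and 3 lower of 20, median 0.40, corrected 0.09 with 8 higher and 4 lower). Eprs, which charges glutamate and proline and whose mRNA has regulatory upstream starts, went from -1.39, -1.09, -0.96 and -1.20 to 0.79, 1.09, 1.19 and 0.90, 4.45-fold up (2.15 ± 0.09, adjusted p = 8.75e-13). Lars (1.94 ± 0.09), Iars (1.53 ± 0.07) and Aars (1.40 ± 0.07) rose as well, for leucine, isoleucine and alanine. Of 19 amino acid transporters 9 rose and 5 fell (median 0.25, corrected 0.21). Slc7a2 and Slc38a2 rose by 1.68 ± 0.09 and 1.04 ± 0.08.

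Ribosomal protein mRNAs fell as a group. None of 79 rose and 65 fell, with a median of -1.23 (-1.03 corrected, with 67 lower and 0 higher). The median ratio of the group was 0.18, -0.09, -0.30 and 0.05 in control samples and -1.07, -1.28, -1.38 and -1.11 at 16 h. Their cytosolic RNA rose in 50 of 79 cases (median 0.45) and their polysome RNA fell in 65 (median -0.83). These mRNAs carry a terminal oligopyrimidine (TOP) start, a C followed by a run of pyrimidines right behind the cap, through which mTOR signalling acts on their translation. To set the sequence beside the change, annotated starts are shown for Rps6, Rpl14, Rpl6 and Eif3f, which fell and hold a pyrimidine run, for Tpt1, a TOP mRNA that fell and holds none in this window, and for Eif3a and Ranbp2, which rose. Each line runs 5′ to 3′ from 10 bases before the RefSeq start to 20 bases from it (GRCm38.p6), and capitals mark the longest run of at least 5 bases that are all C or T.

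Rps6: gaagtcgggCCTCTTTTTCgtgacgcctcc
Rpl14: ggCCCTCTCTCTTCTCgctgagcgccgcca
Eif3f: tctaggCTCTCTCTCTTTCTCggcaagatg
Rpl6: aCCTCCCgtcattgcttatagaccggaagc
Tpt1: cgctgacgacagttccgggggagccgcgga
Eif3a: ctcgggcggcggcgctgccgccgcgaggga
Ranbp2: cgcgcgccgcacgccctgtgcccatccgtt

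The windows lie at chr4:86857348-86857377, minus strand (Rps6), chr9:120571507-120571536, plus strand (Rpl14), chr7:108934405-108934434, plus strand (Eif3f), chr5:121204491-121204520, plus strand (Rpl6), chr14:75845246-75845275, plus strand (Tpt1), chr19:60790674-60790703, minus strand (Eif3a) and chr10:58446842-58446871, plus strand (Ranbp2). The runs of Rps6, Rpl14, Eif3f and Rpl6 are 10, 14, 15 and 6 bases long. They begin at positions -1, -8, -4 and -9 from the annotated start, so that of Rpl6 lies wholly before it. Rps7 has a run of 5 bases from position -7, and Rps4x and Rpl10, which are not shown, hold none. Over all genes tested with a RefSeq window, 2.93% of 9620 hold a C and 4 further pyrimidines exactly at the start on the transcript strand, against 23.21% of 56 ribosomal protein genes. A C and 5 pyrimidines anywhere from 10 bases before to 12 bases from the start occur in 20.58% and 51.79%. The 13 ribosomal protein genes with the run exactly at the annotated start had a median change of -1.14 and the 43 without it -1.26. Outside the ribosomal protein and other TOP lists, 266 genes with such a start had a median of -0.07 and 9285 without it -0.03. An annotated start can differ from the one used in these cells, and the windows describe the annotation. Those of Eif3a and Ranbp2 lie wholly upstream of the GENCODE gene bounds given here for both genes. They do not show the 5′ ends of that annotation.

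Rps6, a protein of the small subunit and a target of S6 kinase, had ratios of 1.34, 1.52, 1.55 and 1.43 in control samples and -0.65, -0.51, -0.44 and -0.60 at 16 h. Its cytosolic RNA went up from 785 to 1332 CPM and its polysome RNA down from 2162 to 911 CPM, a 4.03-fold fall in efficiency (-2.01 ± 0.07, adjusted p = 9.98e-14). Rpl6 and Rps7 were among the 10 lowest named genes of the whole comparison. Rpl6 went from 1.80, 1.64, 1.56 and 1.62 to -0.62, -0.71, -0.73 and -0.63 (-2.33 ± 0.06, adjusted p = 3.72e-15) and Rps7 from 0.74, 0.83, 0.63 and 0.74 to -1.36, -1.39, -1.51 and -1.39 (-2.15 ± 0.06, adjusted p = 1.53e-14). All 3 belong to the 10 lowest, which were picked among genes with ratios that did not overlap. That their treated samples lay below every control was thus a condition of the choice. Rps4x (-2.02 ± 0.10) and Rpl14 (-1.95 ± 0.06) fell to a like extent. Ribosomal protein genes have many processed pseudogenes, and the labels do not state how reads shared with them were counted.

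Of 19 other mRNAs with TOP starts, 14 fell and 3 rose (median -0.92, corrected -0.53). Eef1b2, a subunit of the elongation factor that recharges eEF1A, went from 1.18, 1.50, 1.48 and 1.36 to -0.83, -0.67, -0.70 and -0.80 (-2.13 ± 0.07, adjusted p = 9.78e-14). Tpt1, an abundant growth-associated protein, went up in cytosolic RNA from 1344 to 2760 CPM while its polysome RNA went from 1477 to 789 CPM (-1.95 ± 0.08, adjusted p = 3.94e-13). Ribosomal proteins of mitochondria, whose mRNAs are read in the cytosol, fell in 56 of 73 cases and rose in 2 (median -0.68, corrected -0.44). Mrpl32 fell by 1.62 ± 0.10 and Mrpl37 by 1.40 ± 0.07 (adjusted p = 6.44e-11 and 5.91e-12). In the regression on cytosolic RNA Tpt1 was at -0.64 and did not pass (adjusted p = 0.069).

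Of 31 proteasome subunit mRNAs, 27 fell and 1 rose (median -1.13, corrected -0.84). The median ratio of the group was 1.49, 1.80, 1.71 and 1.62 in control samples and 0.40, 0.49, 0.55 and 0.55 at 16 h, which do not overlap. Psmb3, a subunit of the catalytic core, went from 1.96, 1.79, 1.71 and 1.78 to 0.20, 0.09, 0.04 and 0.15, 3.22-fold down (-1.69 ± 0.06, adjusted p = 1.48e-13), and Psmb2 fell by 1.43 ± 0.06 (-0.22 in the regression on cytosolic RNA, adjusted p = 0.62). Of 75 nuclear-encoded respiratory chain subunits, 46 fell and 3 rose (median -0.58, corrected -0.47), among them Uqcrfs1 (-1.39 ± 0.07) and Cyc1 (-1.14 ± 0.06) of complex III (adjusted p = 3.08e-12 and 1.70e-11). Mitochondrial chaperones and proteases divided into 5 higher and 7 lower of 14 (median -0.30, corrected -0.34). The chaperone Trap1 rose by 1.01 ± 0.06 and the cochaperone Dnaja3 fell by 1.13 ± 0.07 while its cytosolic RNA rose by 1.71. In the regression on cytosolic RNA Dnaja3 was at 1.22 (adjusted p = 0.12) and the group's median at 0.70. Genes encoded in mitochondrial DNA were not analysed here.

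Large chromatin regulators rose in 23 of 29 cases and fell in 1 (median 1.34), with 28 gaining polysome RNA and a median cytosolic change of -0.05. Their median coding length was 7431 nt, and with the length correction the median was 0.37 (17 higher, 8 lower). Ep300, a histone acetyltransferase, went from -1.49, -1.60, -1.53 and -1.45 to -0.02, 0.08, -0.002 and 0.12 (1.56 ± 0.07, corrected 0.44, adjusted p = 6.94e-13). The remodelling ATPases Chd2 and Chd4 rose by 1.78 ± 0.07 and 1.34 ± 0.06 (corrected 0.83 and 0.36), and the related Ep400 by 1.66 ± 0.06 (corrected 0.40). SR proteins and splicing cofactors rose in 15 of 28 cases and fell in 8 (median 0.75, corrected 0.74). All 8 that fell were Srsf, Tra2 or U2af genes, with changes from -0.49 (Tra2b) to -1.01 (U2af1). Of the Srsf genes only Srsf11 rose (0.71), and the others fell or were not called. Thrap3, which acts in splicing and transcription, went from -1.74, -1.63, -1.59 and -1.52 to 0.83, 0.85, 0.94 and 0.90, 5.65-fold up (2.50 ± 0.06, corrected 1.99, adjusted p = 2.98e-15). Son (2.23 ± 0.08), Prpf8 (2.19 ± 0.08) and Srrm2 (1.95 ± 0.07), large proteins of the spliceosome and nuclear speckles, rose too (corrected 1.10, 1.09 and 0.76). Nucleoporins divided into 13 higher and 10 lower of 27 (median 0.57, corrected 0.27), with Nup98 (2.09 ± 0.08), Tpr (1.95 ± 0.08) and Nup133 (1.90 ± 0.09) higher.

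In the extracellular matrix group most genes lost RNA on both sides of the ratio, and most rose in efficiency. Of 36 genes, 30 lost cytosolic RNA (median -1.90), while 22 rose in efficiency and 7 fell (median 1.00, corrected 0.32 with 18 higher and 9 lower). Polysome RNA was lower for 23 of them and higher for 10 (median -1.84). Fn1, fibronectin, had a like cytosolic level in both conditions (1887 and 1911 CPM) and went from 858 to 3828 CPM in polysome RNA. Its ratio was -1.02, -1.28, -1.11 and -1.13 in control samples and 1.02, 0.99, 1.00 and 0.99 at 16 h (2.14 ± 0.06, corrected 1.00, adjusted p = 1.41e-14), with the treated samples close together and above every control. Tnc, tenascin C, went from -1.28, -1.41, -1.13 and -1.31 to 1.29, 1.31, 1.30 and 1.22 (2.57 ± 0.08, corrected 1.55, adjusted p = 7.16e-14) and Lamb1, a laminin chain, rose by 1.99 ± 0.07 (corrected 1.05). Thbs1, thrombospondin 1, lost cytosolic RNA from 3988 to 95.0 CPM and rose 4.29-fold in efficiency (2.10 ± 0.05, adjusted p = 3.72e-15). Its polysome RNA fell as well (log2 change -3.37). In the regression on cytosolic RNA Thbs1 was at -1.89 (adjusted p = 0.43) and the median of the matrix group at -1.30.

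Contractile and cytoskeletal genes, of which 27 of 29 lost cytosolic RNA as the matrix genes did, fell in efficiency in 20 cases and rose in 9 (median -0.78, corrected -0.45). Acta2, smooth muscle actin, went from 2.04, 1.92, 1.98 and 1.92 to 0.15, 0.21, 0.25 and 0.28, 3.35-fold down (-1.74 ± 0.07, adjusted p = 2.88e-13), and its polysome RNA from 2485 to 130.6 CPM. The tropomyosin Tpm1 (-1.35 ± 0.06) and Tagln2 (-1.59 ± 0.06) fell as well. Vcl, vinculin, was an exception: its ratio went from -1.08, -0.996, -0.82 and -1.03 to 1.47, 1.65, 1.58 and 1.45 (2.52 ± 0.07, corrected 1.93, adjusted p = 5.49e-15) although its cytosolic RNA went from 810.4 to 98.6 CPM. The regression on cytosolic RNA gave 0.12 for Vcl (adjusted p = 0.93).

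**Figure D5:**
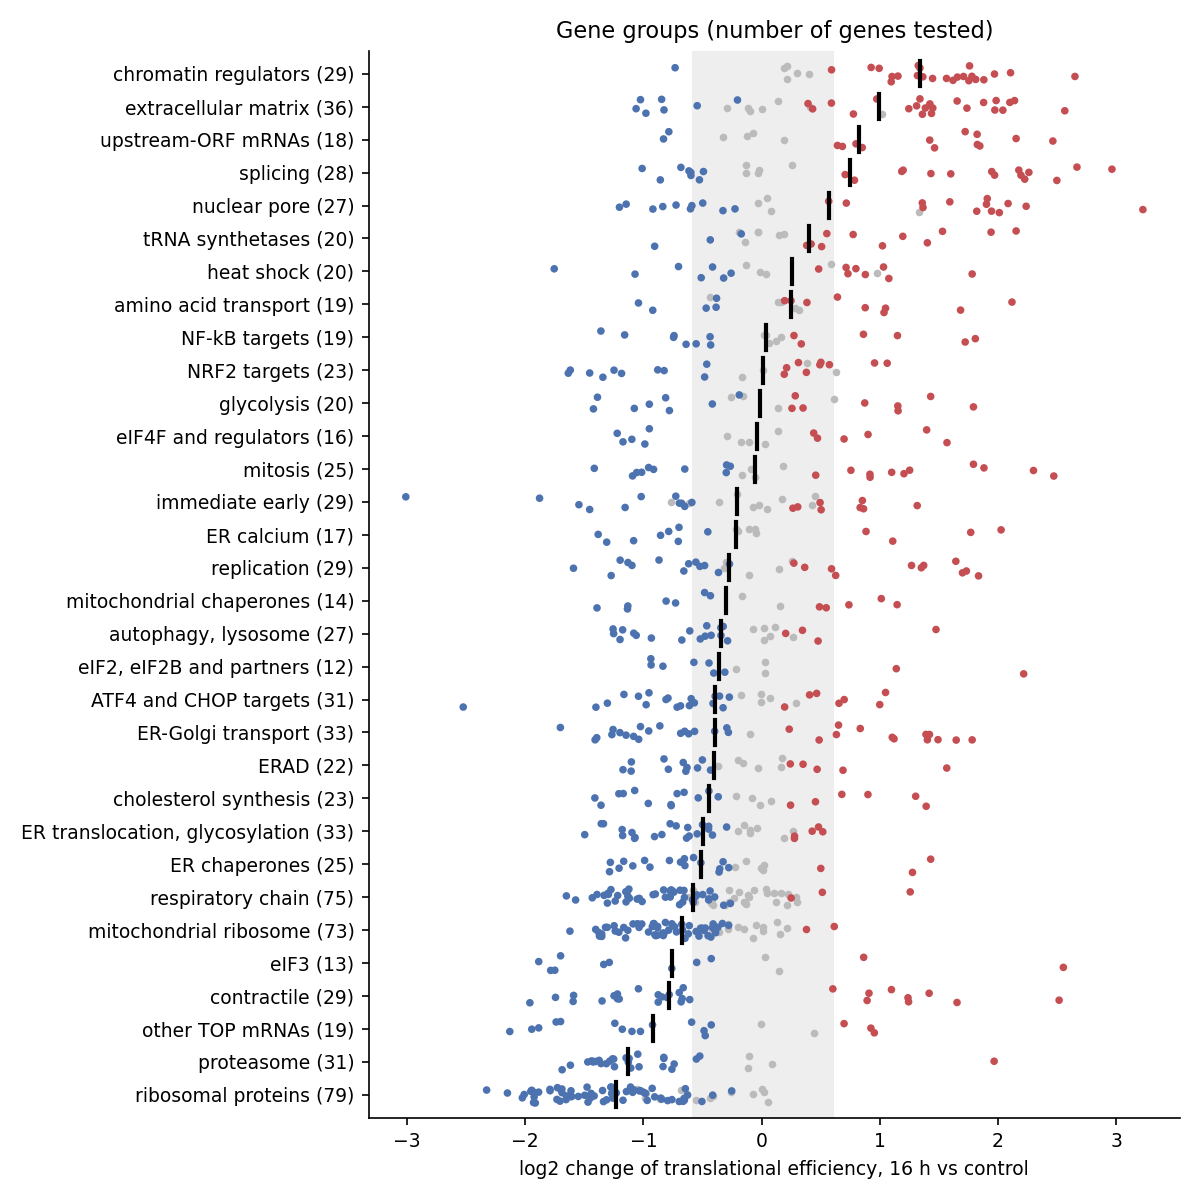
Log2 change of translational efficiency at 16 h against control (horizontal) for the genes of 32 groups (vertical, number of genes tested in brackets), ordered by the group's median (black bar). Red points were called higher, blue lower and grey not called, and the grey band spans the 25th to the 75th percentile of all genes tested. The medians run from 1.34 for the chromatin regulators to -1.23 for the ribosomal proteins, and every group but the ribosomal proteins holds genes called in both directions.

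Cholesterol synthesis, of which 21 of 23 genes lost cytosolic RNA, fell in 13 cases and rose in 6 (median -0.45, corrected -0.21). The enzymes Ebp, a sterol isomerase (-1.41 ± 0.06), and Fdps, which makes farnesyl diphosphate (-1.17 ± 0.09), fell.

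Immediate early genes, which cells induce within minutes of a signal, had less RNA at 16 h (24 of 29 lower in cytosolic RNA) and no common direction in efficiency (8 higher, 11 lower, median -0.21, with 1 sample left out from -0.51 without 16 h sample 1 to -0.02 without 16 h sample 3, corrected 0.19). Egr1 went from 0.94, 0.82, 0.69 and 0.89 to -0.53, -0.79, -0.96 and -0.57 (-1.55 ± 0.09, adjusted p = 5.38e-11), with cytosolic RNA at 603 and 40.3 CPM. The antiproliferative Btg2 fell by 1.02 ± 0.08. Klf10 rose by 1.32 ± 0.07 (adjusted p = 2.24e-11) and was at -2.47 in the regression on cytosolic RNA. Fos was read 63 times in the 4 cytosolic and 44 times in the 4 polysome libraries at 16 h, against 3012 and 6906 times in controls, so its fall of -1.88 ± 0.28 rests on few reads. In the NF-kB group 6 of 19 rose and 8 fell (median 0.04, with 1 sample left out from -0.05 without 16 h sample 1 to 0.07 without control sample 1, corrected -0.26). Ptgs2, the inducible cyclooxygenase, went from -1.23, -0.87, -0.72 and -1.03 to 0.62, 0.93, 1.09 and 0.76 (1.81 ± 0.11, adjusted p = 4.13e-11) and the subunit Rel rose by 1.72 ± 0.19. The regression on cytosolic RNA gave -1.43 and -0.24 (adjusted p = 0.13 and 0.73).

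All 25 genes of mitosis lost cytosolic RNA, while 11 rose in efficiency and 10 fell (median -0.06, with 1 sample left out from -0.08 without control sample 4 to -0.002 without 16 h sample 3, corrected 0.08). The long mRNAs of the motor protein Cenpe (2.47 ± 0.15, corrected 1.33) and the proliferation antigen Mki67 (2.30 ± 0.16, corrected 1.02) rose. Ccnb2, cyclin B2, went from 1.62, 1.70, 1.76 and 1.62 to -0.02, 0.40, 0.26 and 0.41 (-1.42 ± 0.08, adjusted p = 4.38e-11). Mki67 was at -1.12 in the regression on cytosolic RNA (adjusted p = 0.47) and Cenpe at 0.76 (adjusted p = 0.4). For DNA replication 11 of 29 rose and 13 fell (median -0.27, with 1 sample left out from -0.31 without 16 h sample 3 to -0.16 without control sample 3, corrected -0.07), with the helicase subunit Mcm4 at 1.70 ± 0.07 and Tyms, which makes thymidylate, at -1.59 ± 0.09.

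Cytosolic heat shock genes divided into 8 higher and 7 lower of 20 (median 0.26, corrected 0.40), a median that ran from -0.04 without control sample 4 to 0.36 without control sample 2. The nucleotide exchange factors Hsph1 (1.78 ± 0.11) and Hspa4 (1.03 ± 0.10) rose and the cochaperone Dnajb1 fell (-1.07 ± 0.05). Genes of NRF2 and the glutathione and thioredoxin defence had no common direction (9 higher, 10 lower of 23, median 0.01, with 1 sample left out from -0.13 without 16 h sample 1 to 0.14 without control sample 1, corrected 0.19), with Gsr, glutathione reductase, at -1.25 ± 0.06 and the peroxiredoxin Prdx6 at -1.34 ± 0.07 (-0.15 in the regression on cytosolic RNA, adjusted p = 0.77). In autophagy and lysosome genes 17 of 27 fell and 4 rose (median -0.34, corrected -0.19, and 0.05 in that regression), among them the lysosomal membrane protein Lamp1 (-1.25 ± 0.05) and the selective autophagy receptor Nbr1 (1.48 ± 0.07). Glycolytic enzymes split evenly (8 higher and 8 lower of 20, median -0.01, with 1 sample left out from -0.03 without control sample 2 to 0.06 without control sample 1, corrected -0.16). Hk2, a hexokinase, went from -0.29, -0.45, -0.34 and -0.37 to 1.46, 1.41, 1.47 and 1.38 (1.79 ± 0.06, adjusted p = 7.60e-14) and Tpi1, triosephosphate isomerase, from 2.35, 2.17, 2.20 and 2.22 to 0.91, 0.80, 0.82 and 0.86 (-1.39 ± 0.05, adjusted p = 3.35e-13), each without overlap of the groups. In the BCL2 family of cell death regulators 5 of 14 rose and 3 fell (median -0.06, with 1 sample left out from -0.17 without control sample 3 to 0.06 without 16 h sample 3, corrected 0.33 with 6 higher and 0 lower). The survival protein Bcl2 rose by 0.93 ± 0.11 and the pro-apoptotic Bcl2l11, known as BIM, by 0.82 ± 0.09 (adjusted p = 4.73e-07 and 1.23e-07). Bid fell by 0.42 ± 0.07, a call that ended with the length correction (-0.07) and turned in the regression (0.53, adjusted p = 0.23).

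The extremes of the comparison were picked by size among called genes with ratios that did not overlap. Each kind of RNA also had to reach a mean of at least 5 CPM in control samples or at 16 h. Ranbp2, the largest nucleoporin (chr10:58446920-58494356, plus strand), went from -3.63, -3.06, -3.08 and -3.35 to -0.39, 0.14, 0.22 and -0.20, with polysome RNA at 14.5 CPM in controls and 174 CPM at 16 h and cytosolic RNA at 141.7 and 182 CPM (3.23 ± 0.14, corrected 1.97, adjusted p = 7.19e-13). Avil, an actin-binding protein, had a higher value (3.82 ± 0.19, corrected 3.43), and its cytosolic RNA went from 1.56 to 25.6 CPM. Its control value rests on 34 polysome and 225 cytosolic reads over 4 samples, and it reached the mean of 5 CPM through its level at 16 h. Dhx9, an RNA helicase, went from -2.19, -1.62, -1.60 and -1.85 to 0.75, 1.20, 1.25 and 0.97 (2.86 ± 0.13, corrected 2.09, adjusted p = 1.06e-12). Map1b, a microtubule-associated protein (2.74 ± 0.10, corrected 1.60), the peptidase Tpp2 (2.80 ± 0.11, corrected 2.09), the exchange factor Dock4 (2.90 ± 0.12), Bclaf1 (2.96 ± 0.12), Simc1 (2.95 ± 0.12), Zfp157 (2.74 ± 0.16) and Brd8 (2.70 ± 0.10) complete the 10 highest. Apart from Avil their cytosolic RNA changed by -0.72 (Brd8) to 0.55 (Zfp157) on the log2 scale, while their polysome RNA rose by at least 2.02 (Brd8).

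At the lower end Nr4a1, an orphan nuclear receptor and immediate early gene, went from 2.38, 1.63, 1.49 and 2.16 to -0.80, -1.44, -1.41 and -0.63 (-3.01 ± 0.26, adjusted p = 4.09e-08), with polysome RNA at 488 CPM in controls and 2.12 CPM at 16 h. The 4 control samples were spread, with samples 1 and 4 high, and so were the treated ones. Pcyox1l (-2.58 ± 0.24), Lrp5, a coreceptor of Wnt signalling (-2.23 ± 0.22), Rpl6, Rps7, Eef1b2, Rps4x and Rps6 are among the 10 lowest. Vwa1 (-2.37 ± 0.38) was read 86 times in cytosolic and 53 times in polysome RNA over the 4 samples at 16 h. Esm1 was listed as lower but had 10 cytosolic and 2 polysome reads in all 4 samples at 16 h, against 2055 and 2455 in controls, so its ratio there cannot be read, and its call ended without 16 h sample 2 (-1.67, adjusted p = 0.16). Nr4a1, Vwa1 and Esm1 reached the mean of 5 CPM in polysome RNA only through their level in controls.

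Whether the state at 16 h differs from the early response was tested directly, with the 4 samples treated for 1 h in place of the controls. Efficiency was higher at 16 h than at 1 h for 1824 genes (14.5%) and lower for 1703 (13.6%), and a difference of at least 2-fold was called for 35 and 78. The middle of all genes lay between -0.24 and 0.24 on the log2 scale, and 5% lay below -0.68 and 5% above 0.59. Gene groups with more members higher at 16 h than lower included the proteasome (19 higher and 0 lower of 31, median 0.29), cholesterol synthesis (17 and 0 of 23, median 0.40), glycolysis (13 and 1 of 20, median 0.40), ER chaperones (12 and 1 of 25, median 0.23), eIF3 (7 and 0 of 13, median 0.28), heat shock (10 and 0 of 20, median 0.31) and contractile genes (13 and 3 of 29). ER-to-Golgi transport (14 and 5 of 33), SR proteins and splicing cofactors (11 and 5 of 28) and ER translocation (8 and 3 of 33) had such a surplus too. So did tRNA synthetases (7 and 1 of 20), the NRF2 group (7 and 0 of 23) and nucleoporins (7 and 2 of 27). For mitochondrial ribosomal proteins (14 and 8 of 73, median 0.005) and respiratory chain subunits (14 and 9 of 75, median -0.016) the surplus was small. Their medians lay near 0, so no shift of either group is shown. Groups with more members lower at 16 h were the ribosomal proteins (18 lower and 0 higher of 79, median -0.20), chromatin regulators (12 and 1 of 29, median -0.18), immediate early genes (11 and 2 of 29, median -0.11), the upstream-frame mRNAs (5 and 0 of 18, median -0.05) and the BCL2 family (5 and 1 of 14, median -0.32). Matrix genes (8 and 6 of 36, median 0.08), mitosis genes (4 and 1 of 25, median -0.009) and eIF4F with its regulators (4 and 2 of 16, median -0.10) had small surpluses of lower members. The matrix median had the opposite sign and that of mitosis lay near 0.

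The upstream-frame mRNAs differed among themselves in time. Atf4 had ratios of 0.65, 0.58, 0.66 and 0.66 in the 4 samples at 1 h and 0.52, 0.55, 0.54 and 0.54 at 16 h, a difference of -0.10 ± 0.05 (16 h minus 1 h) that did not pass (adjusted p = 0.16). Ddit3 (-0.17 ± 0.09, adjusted p = 0.18) was not called either. Ppp1r15a was at 1.82, 1.78, 1.87 and 1.98 at 1 h and 0.70, 0.51, 0.52 and 0.59 at 16 h, lower at 16 h (difference -1.28 ± 0.07, adjusted p = 8.55e-09) yet above the controls at both times. Slc35a4 (-0.68 ± 0.09), Atf5 (-0.46 ± 0.12), Uhmk1 (-0.56 ± 0.17) and Amd1_Amd2 (-0.56 ± 0.11) were lower at 16 h as well (adjusted p at most 0.022). Hspa5 was higher at 16 h than at 1 h (0.42 ± 0.09, adjusted p = 0.0025), as were Herpud1 (0.47 ± 0.05), Xbp1 (0.54 ± 0.08) and Atf3 (0.32 ± 0.07). The regression on cytosolic RNA called 7306 genes in this contrast and put Ddit3 at 1.46, Ppp1r15a at 0.74 and Atf5 at 0.23. Ddit3 was called without 16 h sample 1 (-0.25), Atf4 with only genes of at least 5 CPM tested (-0.13), and the call of Uhmk1 ended without 16 h sample 1 (-0.43) or 4 (-0.54) or without 1 h sample 3 (-0.52) or 4 (-0.54). Of the initiation factors Eif5 (0.67 ± 0.12), Eif2ak2 (0.62 ± 0.11), Eif2s1 (0.46 ± 0.11) and Eif3l (0.41 ± 0.06) were higher at 16 h, and Eif4ebp3 (-0.67 ± 0.15) and Eif4ebp2 (-0.49 ± 0.09) lower, of which the last 2 did not pass with the length correction (-0.43 and -0.30).

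Among genes called in both contrasts, those with the highest difference between 16 h and 1 h were Avil (2.32 ± 0.20), Phyhd1 (1.26 ± 0.25), Pdlim5 (1.18 ± 0.09), C1s2 (1.09 ± 0.18) and Vmp1 (0.97 ± 0.11). Pdlim5, a scaffold protein of the actin cytoskeleton, had ratios of -1.76, -1.50, -1.47 and -1.67 in control samples, -0.11, -0.16, -0.18 and -0.16 at 1 h and 0.80, 1.19, 1.13 and 0.98 at 16 h. All genes of this paragraph were picked among those whose 16 h and 1 h ratios did not overlap, so that separation is no result. Among the lowest were Fos (-2.17 ± 0.28), Ogt (-1.90 ± 0.09), Aoc3 (-1.46 ± 0.24) and Nr4a1 (-1.39 ± 0.26). Ogt, the enzyme that attaches N-acetylglucosamine to nuclear and cytosolic proteins, was at -3.13, -2.93, -2.80 and -3.00 in control samples, 0.10, -0.14, -0.08 and 0.04 at 1 h and -2.10, -1.84, -1.72 and -2.00 at 16 h, so its ratio stood above the controls at both times and nearer to them at 16 h. The regression on cytosolic RNA put C1s2 at -1.07 in this contrast and at 0.22 against control. Against control, the calls of Phyhd1, Vmp1 and Aoc3 each ended when single samples were left out. Without control sample 4 Phyhd1 was at 0.49 (adjusted p = 0.11). Vmp1 lay between -0.25 and -0.20 without control sample 2 or 3 or 16 h sample 1 or 4, and Aoc3 between -0.57 and -0.42 without control sample 1 or 4 or 16 h sample 2, 3 or 4. With the length correction Vmp1 was at -0.06 (adjusted p = 0.67).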

How the data were processed

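RNA was measured by TruSeq sequencing of cytosolic RNA and of polysome RNA from the same samples, 4 per condition. The submitters' processing notes name HISAT, DESeq2 1.9.23 and the mouse build mm10, with the role of each tool not given in these notes. The deposited counts are whole numbers per gene symbol with totals that differ between libraries. The sources used here name no counting tool, strand setting or annotation, and values of genes that overlap, lie antisense or have close copies are uncertain. No library repeated another within sampling noise (lowest chi-square per degree of freedom 2.32).

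Counts were filtered with filterByExpr of edgeR 4.0.16 in R 4.3.3 (minimum count 10, minimum total 15) and scaled by TMM factors. Translational efficiency was tested with edgeR's quasi-likelihood test over all 32 libraries as the interaction between kind of RNA and treatment, in a model with a term for every sample (12 residual degrees of freedom). Cytosolic and polysome RNA were each tested over their 16 libraries. Benjamini-Hochberg adjustment ran over all genes tested, and a gene was called at an adjusted p under 0.05. Ratios per sample are differences of log2 CPM with a prior count of 2. Changes are log2 values with standard errors from the fit. Levels are mean CPM over 4 libraries, scaled over all 32, so ratios of levels can differ somewhat from changes within 1 kind of RNA. Conditions share replicate numbers, and the ratio deviations of same-numbered control and 16 h samples correlated over genes at 0.854, 0.614, 0.872 and 0.604. The labels do not say what a number shares, so a pairing is read from these data alone. The test described does not pair the samples, and fits with the number as a block are given where they change a call.

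Alternatives were DESeq2 1.42.0 size factors and Wald test, other filters, fits with and without blocks, offsets corrected for coding length, a limma 3.58.1 regression of polysome on cytosolic RNA, and leaving out samples. The blocked fit of control and 16 h libraries alone was added after seeing the data. Coding lengths come from GENCODE release 21 (GRCm38). Genes were named by rule: every gene of the stress panel, the upstream-frame list and 4 initiation factor lists, the 10 highest and 10 lowest changes, up to 4 members of every other list by smallest p, and the 5 highest and 5 lowest differences between 16 h and 1 h. A few of these genes are not reported here. The comparison, the gene lists and this rule were chosen with earlier results of these data known. Medians and counts describe a list and are no test. Only the fit of efficiency at 16 h against control was tried on simulated data. These held no deviations shared by samples with the same number.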

Additional observations from a re-analysis of the deposited data

Results flagged for a closer look

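In 428 groups of 4 log2 ratios (the 179 genes described and the medians of gene groups, each in control samples and at 16 h), 5 had 1 sample far from the other 3, and chance flags about 1 in 20 such groups. The ratio of Eif3d was 1.47 in 16 h sample 1 and 1.40 in the other 3. Eif3i was at 1.91 in control sample 1, and the others lay between 1.75 and 1.76. Rpl14 was at -0.62 in 16 h sample 3, with the others from -0.54 to -0.53. Trap1 was at 1.67 in 16 h sample 1, with the others from 1.57 to 1.58. Klf10 was at -0.71 in control sample 3, with the others from -0.85 to -0.84.

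The change of efficiency against control differed between 16 h and 1 h (edgeR's quasi-likelihood test of the difference, adjusted p under 0.05) for 86 of the 179 genes described, given here as log2 differences, 16 h minus 1 h. A difference of at least 0.5 upwards was found for Avil (2.32), Phyhd1 (1.26), Pdlim5 (1.18), C1s2 (1.09), Vmp1 (0.97), Sec24d (0.88), Vcl (0.70), Eif5 (0.675), Dnajb1 (0.67), Eif2ak2 (0.625), Bclaf1 (0.56) and Xbp1 (0.54). Between 0.3 and 0.5 lay Pdcd4 (0.485), Klf10 (0.48), Uqcrfs1 (0.47), Herpud1 (0.47), Copg1 (0.47), Nck1 (0.465), Eif2s1 (0.455), Hspa4 (0.45), Hspa5 (0.42), Psmb2 (0.42), Tpp2 (0.42), Fn1 (0.415), Eif3g (0.41), Eif3l (0.41), Thrap3 (0.40), Trap1 (0.40), Dock4 (0.38), Eif3b (0.37), Ptgs2 (0.365), Eif2ak1 (0.36), Dnajc3 (0.35), Eif3m (0.32), Fdps (0.32), Atf3 (0.32) and Brd8 (0.315). Smaller positive differences were those of Psmb3 (0.29), Eif3c (0.29), Eif3d (0.28), Iars (0.24), Eif2ak4 (0.24), Tpr (0.23), Pdia5 (0.23), Eif3i (0.225), Lamp1 (0.21), Eif4g1 (0.19), Tpi1 (0.185), Mthfd2 (0.18) and Tagln2 (0.15). A difference of 1 or more downwards was found for Fos (-2.17), Ogt (-1.90), Aoc3 (-1.46), Nr4a1 (-1.39), Ppp1r15a (-1.28), Vwa1 (-1.25), Egr1 (-1.115) and Son (-1.08). Between -1 and -0.4 lay Pcyox1l (-0.83), Slc35a4 (-0.68), Mki67 (-0.67), Eif4ebp3 (-0.665), Zfp157 (-0.635), Btg2 (-0.59), Uhmk1 (-0.565), Amd1_Amd2 (-0.56), Map1b (-0.55), Eif4ebp1 (-0.52), Ep300 (-0.51), Eif4ebp2 (-0.49), Atf5 (-0.455), Thbs1 (-0.45) and Bcl2l11 (-0.435). Smaller negative differences were those of Lars (-0.38), Prpf8 (-0.35), Srrm2 (-0.34), Itpr1 (-0.33), Txndc5 (-0.33), Mrpl37 (-0.29), Cyc1 (-0.29), Lamb1 (-0.27), Eif4g3 (-0.24), Bid (-0.21), Gpt2 (-0.19), Chd4 (-0.17) and Hk2 (-0.16). The genes were chosen by the rule above and several were picked by this difference itself, so the share that differed is not an estimate for all genes.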

How the results depend on the processing

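The number of genes called at 16 h against control, 8061, ran from 7337 to 9328 over 10 alternatives and from 7699 to 8247 with 1 sample left out, and the numbers for cytosolic and polysome RNA stayed within 1.5 times of theirs. For 16 h against 1 h, 3527 genes were called, from 2849 to 3703 with 1 sample left out, and 7306 in the regression of polysome on cytosolic RNA, whose slope comes from the spread of samples within conditions. Over the named genes, 3108 of 3219 values against control and 2620 of 2861 against 1 h kept their call and its direction or were called in neither fit. Depth limits the genes with few reads at 16 h (Esm1, Fos and Vwa1) or in controls (Avil). In the regression these genes, called in 1 of the fits or both, turned sign against control: Ucp2 (-1.67), Amd1_Amd2 (-0.59), Herpud1 (1.66), Xbp1 (0.885), Dnajb9 (2.71), Atf3 (1.88), Trib3 (0.79), Chac1 (2.55), Asns (0.57), Eif3e (0.44), Eif3j1_Eif3j2 (0.28), Eif2s1 (0.50), Eif2s3x (0.25), Eif2b3 (1.65), Eif2b4 (0.20), Eif2ak3 (0.16), Nck1 (0.69), Dnajc3 (2.035), Eif4ebp1 (0.625), Mknk1 (0.10), Pdcd4 (0.79), Gpt2 (0.010), Dnaja3 (1.22), Thbs1 (-1.89), Klf10 (-2.47), Ptgs2 (-1.43), Rel (-0.24), Mki67 (-1.12) and Bid (0.53). Against 1 h they were Ddit3 (1.46), Ppp1r15a (0.735), Atf5 (0.23), Eif3f (0.39), Eif1 (1.03), Eif2ak4 (-0.085), Eif4g1 (-0.21), Eif4g2 (0.59), Eif4g3 (0.84), Eif4ebp1 (0.086), Bclaf1 (-0.032), Brd8 (-0.25), Eef1b2 (0.94), Rps6 (0.51), Gpt2 (0.63), Lars (0.053), Derl2 (1.53), Tpt1 (0.92), Mrpl32 (1.215), Mrpl37 (0.61), Fn1 (-1.69), Vcl (-1.47), Fdps (-0.19), Klf10 (-2.92), Ptgs2 (-3.635), Rel (-1.76), Ccnb2 (-2.75), Prdx6 (1.06), Lamp1 (-0.057), Tpi1 (-0.27), Thrap3 (-0.35), Bid (0.67) and C1s2 (-1.07). Medians that turned in it and lay farther from 0 than the spread between samples (1 SD) were those of the stress panel (1.77), ATF4 and CHOP targets (0.90), ER chaperones (1.64), ER-associated degradation (0.46), ER translocation (0.023), ER-to-Golgi transport (0.058), eIF2 and partners (0.38), mitochondrial chaperones (0.70), matrix genes (-1.30) and autophagy (0.046). By the same rules the correction for coding length turned Xbp1 (0.005), Atf3 (0.043), Eif3b (-0.35) and Eif2ak4 (-0.014) against control, Ep400 (0.19) against 1 h and the median of immediate early genes (0.19). The median of heat shock genes was -0.022 with only control and 16 h libraries, -0.021 with the replicate block added, and from -0.039 (without control sample 4) to 0.357 (without control sample 2) with 1 sample left out. The cause was not tested for any of these turns. The replicate block across conditions called 8159 genes against control and 3641 against 1 h, and with only control and 16 h libraries 9328. Apart from the calls given beside the results, it changed those of Dnajb9, Eif3e, Eif1ax, Ppp1cb, Eif4a2 and Mcm4 (called) and Gpt2, Tagln2 and Hk2 (lost) against 1 h, and no other call of a named gene.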

Other observations

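The 2 libraries of a sample did not always deviate from their groups in the same direction. Over 9933 genes, the deviations of the cytosolic and the polysome library from their group means correlated at -0.576 in control sample 3, at -0.675 in 16 h sample 1 and at -0.703 in 16 h sample 3. The other control and 16 h samples lay between -0.0839 and 0.374. The ratios of samples 1 and 3 were also those farthest from their group means.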
